A study of Mus musculus with 16 samples.

Results

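Nos1ap, Efhd2, Bok, Lypd1 and Coch are 5 genes that were picked because their long-read counts were much lower in R6/2 than in non-transgenic (NT) mice. They are 5 of the 24960 annotated genes with rows in the count files, and their 238 isoform rows (119 of Nos1ap, 58 of Coch, 23 of Lypd1, 19 each of Efhd2 and Bok) are part of 815498. PacBio Iso-seq reads cDNA molecules from end to end, and 1 read therefore carries all exon junctions of its molecule. RNA came from the cortex and the striatum of 3-month-old male mice, with 4 samples for each region and genotype and 16 in all. R6/2 mice (strain B6CBA-Tg(HDexon1)62Gpb/3J) carry a transgene that expresses exon 1 of mutant human huntingtin, so that they model Huntington's disease by a fragment of the protein, and NT mice lack it. Because the genotype difference chose the genes, it is described below without a test. The NT and the R6/2 samples that entered the choice also enter the tests between regions.

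The 5 genes act in different pathways. Nos1ap is an adaptor whose carboxy-terminal end binds neuronal nitric oxide synthase and whose amino-terminal part holds a phosphotyrosine-binding domain. Efhd2, also called swiprosin-1, is a calcium-binding EF-hand protein that binds actin. Bok is a BCL2 family member that resembles BAX and BAK and binds inositol trisphosphate receptors. Lypd1 is a membrane-anchored Ly6 protein related to Lynx1, which modulates nicotinic acetylcholine receptors, and Coch encodes cochlin, a secreted protein best known from the extracellular matrix of the inner ear.

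Levels are given as CPM, the reads of a gene scaled to a common library size after normalization by the trimmed mean of M values (TMM). Cortical samples had 203081 to 700715 gene reads, and striatal samples had 251925 to 1350502. In the striatum, NT 1, NT 2, R6/2 2 and R6/2 3 had 2 files of counts that were summed. Their mean isoform length per read was 2125 to 2197 nt and their mitochondrial share 0.368% to 0.767%, against 1589 to 1840 nt and 1.22% to 2.63% in the striatal samples of 1 file, so striatal values are also given within each number of files. Striatal NT 4 had few reads of these genes (between 3 and 19 per gene). Region markers went with the tissue labels: all 9 tested markers of striatal projection neurons were higher in NT striatum and all 3 tested markers of cortical excitatory neurons were higher in NT cortex (edgeR). The summed levels of 4 choroid plexus markers lay between 36.8 and 9572 CPM in NT striatum, where NT 3 alone held the high value.

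Of the 5 genes, the promoters of the 4 with the largest fall in R6/2 cortex are shown. Their levels moved together across samples, but these samples share the genotype difference that chose the genes, and shared regulation was not tested. Each window, from RefSeq on GRCm38.p6, runs from 250 bases before to 50 bases after a transcription start, and capitals mark GC boxes (GGGCGG on either strand) and, in Lypd1, an E box (CACGTG).
Nos1ap, chr1:170589800-170590099 (minus strand): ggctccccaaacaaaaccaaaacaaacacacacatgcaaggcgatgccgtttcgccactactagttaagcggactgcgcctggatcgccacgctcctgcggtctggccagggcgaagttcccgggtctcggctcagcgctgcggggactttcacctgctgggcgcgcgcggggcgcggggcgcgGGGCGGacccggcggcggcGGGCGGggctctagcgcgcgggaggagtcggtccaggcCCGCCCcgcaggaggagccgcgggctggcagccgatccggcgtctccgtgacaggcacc
Efhd2, chr4:141874871-141875170 (minus strand): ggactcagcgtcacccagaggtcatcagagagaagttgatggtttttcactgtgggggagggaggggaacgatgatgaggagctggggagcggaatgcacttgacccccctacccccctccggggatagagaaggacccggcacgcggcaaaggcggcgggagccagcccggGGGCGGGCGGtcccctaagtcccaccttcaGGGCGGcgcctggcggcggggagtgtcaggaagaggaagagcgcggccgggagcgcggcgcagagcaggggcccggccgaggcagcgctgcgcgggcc
Bok, chr1:93685325-93685624 (plus strand): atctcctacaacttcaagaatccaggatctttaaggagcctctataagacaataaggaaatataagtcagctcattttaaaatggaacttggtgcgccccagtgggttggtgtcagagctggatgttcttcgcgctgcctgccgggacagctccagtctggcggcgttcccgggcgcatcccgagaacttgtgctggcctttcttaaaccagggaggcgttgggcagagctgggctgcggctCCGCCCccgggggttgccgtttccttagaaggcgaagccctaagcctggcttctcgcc
Lypd1, chr1:125912165-125912464 (minus strand): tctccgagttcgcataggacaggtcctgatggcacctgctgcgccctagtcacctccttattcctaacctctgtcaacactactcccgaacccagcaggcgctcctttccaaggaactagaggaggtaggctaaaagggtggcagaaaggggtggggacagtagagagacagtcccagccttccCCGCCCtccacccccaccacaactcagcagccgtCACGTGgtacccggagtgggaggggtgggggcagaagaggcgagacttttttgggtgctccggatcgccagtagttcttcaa
The start on which the window is set was also that of the most-read isoform for Nos1ap, Efhd2 and Lypd1, and the start of the Bok isoform lay 85 bases downstream of it. A GC box was present in these 4 windows and in that of Coch, against 35.7% of all 32851 promoters. Promoters of the genes tested here were not set apart, so these shares do not show a trait of the 5 genes. Nos1ap has 2 promoters and Lypd1 has 3, and 1 of each is shown. None of the 5 windows held CCAAT (37.4% of all promoters) or TGACGTCA (1.79%), 1 held CACGTG (7.15%), and that of Coch held TATAAA on the strand opposite to transcription (13.6% on either strand). All motifs were searched on both strands. Counts of CG pairs were 39 for Nos1ap, 27 for Efhd2, 16 for Bok, 12 for Lypd1 and 32 for Coch, with a median of 7 over all promoters.

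Nos1ap (ENSMUSG00000038473, mm10 chr1:170302668-170589861, minus strand) was much lower in the cortex of R6/2 mice. NT cortex had 265, 245, 320.3 and 216 CPM in replicates 1 to 4. R6/2 cortex had 93.6, 72.1, 101 and 74.5 CPM. The groups were apart, with means of 262 ± 44.1 and 85.3 ± 14.2 CPM (SD, n = 4), or 32.6% of the NT level. In the striatum, NT samples had 109, 70.5, 82.1 and 50.8 CPM and R6/2 samples 42.5, 60.5, 73.1 and 46.7 CPM. These groups overlapped, and the R6/2 mean was 71.3% of the NT mean. It was 67.1% in samples of 1 file and 74.4% in samples of 2 files, so the striatal samples of each kind had the lower mean in R6/2 mice. The fitted log2 difference was −1.56 (SE 0.19) in the cortex and −0.52 (SE 0.25) in the striatum. As in any bulk tissue, fewer cells that express a gene and less of its RNA per cell cannot be told apart in these values.

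**Figure D1:**
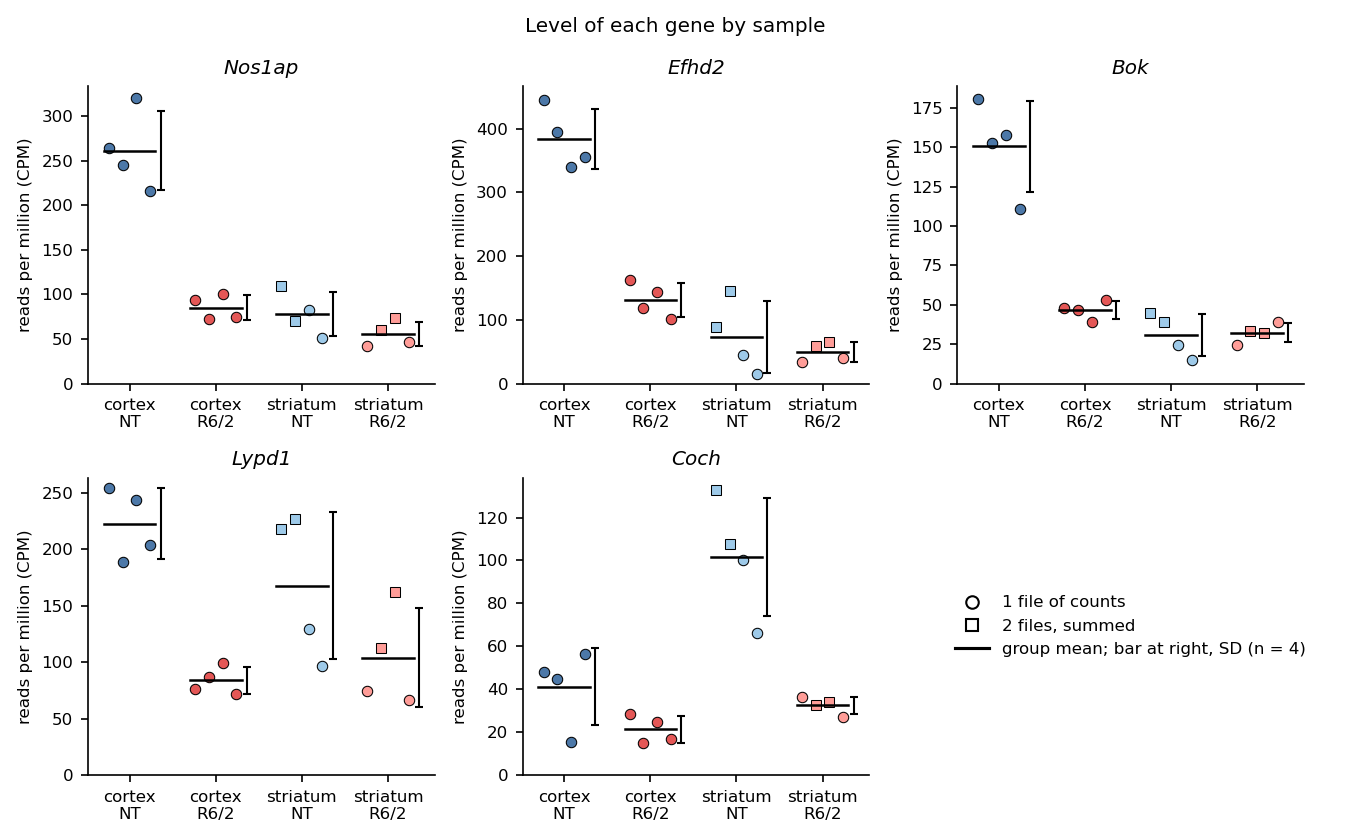
CPM of each gene (vertical axis, own scale and starting at 0) in the 16 samples, grouped by region and genotype, with squares for samples of 2 files, circles for samples of 1 file, a line for the mean and a bar for the SD. Nos1ap, Efhd2, Bok and Lypd1 were apart between NT and R6/2 cortex, whereas Coch was apart between NT and R6/2 striatum.

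Most Nos1ap reads were not of the form that encodes the complete protein. Of the 7 known isoforms with rows, 5 had at least 10 reads. ENSMUST00000160456 has 10 exons, and its reading frame holds 503 codons before the stop. ENSMUST00000161966 has 8 exons and runs from exon 8 into intron 8. It is annotated as a retained intron, without a coding sequence. Read in the frame of the 10-exon form, it reaches a stop after 309 shared and 16 other codons, before the end that binds nitric oxide synthase. Whether a protein is made from it was not tested. ENSMUST00000161485 also ends in exon 8, and its exon 4 has 74 instead of 59 bases. ENSMUST00000162090 begins at an exon of its own within intron 8 (chr1:170323911-170324355) and joins it to exons 9 and 10. It is annotated as a processed transcript, also without a coding sequence. The junctions that tell these forms apart, from GENCODE M21 transcripts (GRCm38), are shown next, with exon 9 or the intron in capitals in the first and the second, the inner first exon in the third and the 15 added bases (chr1:170375307-170375321) in the fifth.
Exon 8 to exon 9 (10-exon form): gtggctgtggcccagGTACACTTACTGAAG
Exon 8 into intron 8 (8-exon form): gtggctgtggcccagGTTCTCCTCAGCCTC
Inner first exon to exon 9 (3-exon form): GGAGCTGGAGTCCAGgtacacttactgaag
Exon 3 to exon 4, 59 bases: aagaagaagaaaaagaaaaaggagtggacg
Exon 3 to exon 4, 74 bases: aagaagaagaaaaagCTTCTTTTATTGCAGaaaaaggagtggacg

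**Figure D2:**
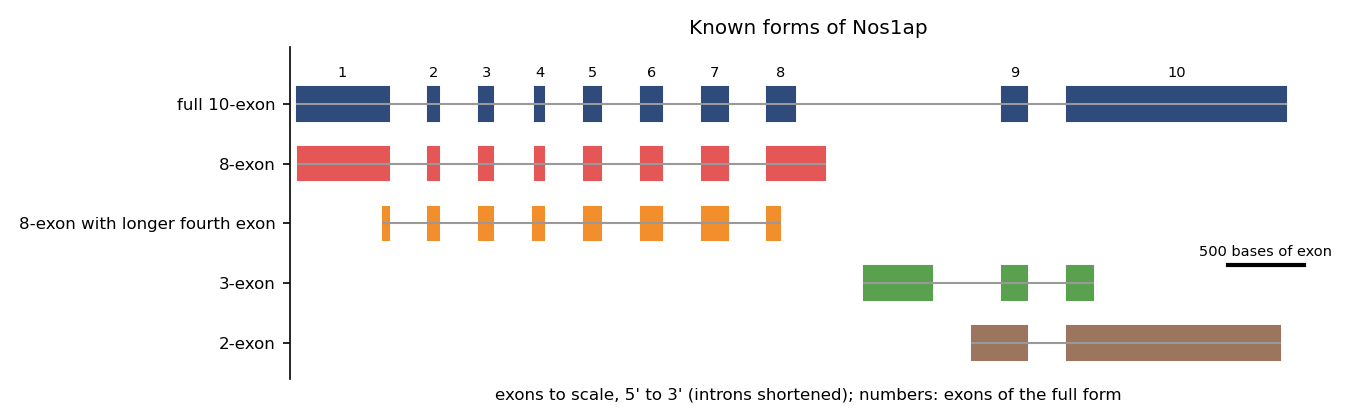
Known forms of Nos1ap with at least 10 reads (rows), with exons as boxes to scale and introns shortened, read from left to right in the direction of transcription. The 8-exon forms end at exon 8 or in the intron after it, and the 3-exon and 2-exon forms hold only the end of the gene.

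The 8-exon form was the most read one in NT cortex. It had 54 of 78, 58 of 101, 17 of 62 and 57 of 98 complete reads (reads of known, NIC or NNC isoforms, where an NIC isoform is an unannotated combination of known splice sites and an NNC isoform has at least 1 unannotated site). The 10-exon form had 4 of 78, 3 of 101, 4 of 62 and 4 of 98 of them, and the 3-exon form 7, 23, 27 and 17. NT 3 stood out with the lowest count of the 8-exon and the highest of the 3-exon form. In all, 53.1% ± 17.9 of complete reads per sample were of the 8-exon form, 14.5% ± 3.89 of the form with the longer exon 4, 23.2% ± 14.7 of the 3-exon form and 4.66% ± 1.49 of the 10-exon form (SD, n = 4). In R6/2 cortex, the 10-exon form had 3 of 33, 6 of 25, 7 of 59 and 1 of 28 complete reads, and its share of 12.1% ± 8.63 overlapped that of NT cortex.

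Among complete reads, most of the cortical difference in Nos1ap lay in the shorter forms. Incomplete reads, with only some of an isoform's junctions, are in no form here. They made up 8.59% ± 6.37 of the gene's counted reads in NT and 21.1% ± 10.4 in R6/2 cortex (SD, n = 4), with overlap. Both 8-exon forms together went from 157 ± 21.8 to 36.4 ± 13.6 CPM, which is 23.2% of the NT level, and the 3-exon form went from 60.7 ± 52.7 to 12.7 ± 8.88 CPM, or 20.9%. The 10-exon form had 11.6 ± 6.12 CPM in NT and 7.74 ± 4.58 CPM in R6/2 cortex, or 66.7%, from 15 and 17 reads. With so few reads, its difference was within the spread of the samples. Reads of the genomic class, which TALON sets apart as possible unspliced or genomic sequence and which were left out of gene counts, had 41.9 ± 11.3 CPM in NT and 34.0 ± 11.4 CPM in R6/2 cortex for Nos1ap. They made up 22.4% of all Nos1ap reads, and with them the cortical log2 difference was −1.30 in place of −1.56.

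In the striatum, the 10-exon form had a larger mean share of complete Nos1ap reads than in the cortex, without a call in the test below. It had 17 of 76, 19 of 77, 7 of 40 and 1 of 6 complete reads in NT and 4 of 21, 18 of 47, 20 of 63 and 6 of 17 in R6/2 striatum. Shares were 20.3% ± 3.85 and 31.1% ± 8.47 (SD, n = 4). All 4 striatal NT samples, of 1 or of 2 files, were above all 4 cortical NT samples, whose highest share was 6.45%. For striatal NT 4 this rests on 1 of 6 reads, and how often isoforms of other genes were apart in this way was not counted. In a test of isoform usage between the regions in NT mice (edgeR's diffSpliceDGE), the 10-exon form had a log2 usage difference of 1.62 (unadjusted p = 0.000443), but the gene did not pass the threshold (adjusted p = 0.275). Of the genes tested, 0.271% did. In CPM, the 10-exon form had 13.6 ± 7.23 CPM in NT striatum and 15.4 ± 6.77 CPM in R6/2 striatum, against 11.6 ± 6.12 CPM in NT cortex, whereas both 8-exon forms together had 30.2 ± 17.9 and 16.7 ± 6.64 CPM. The gene's lower level in striatum than in cortex of NT mice lay in the forms that end at exon 8 and in the 3-exon form, which had 10.3 ± 6.79 CPM in NT striatum.

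**Figure D3:**
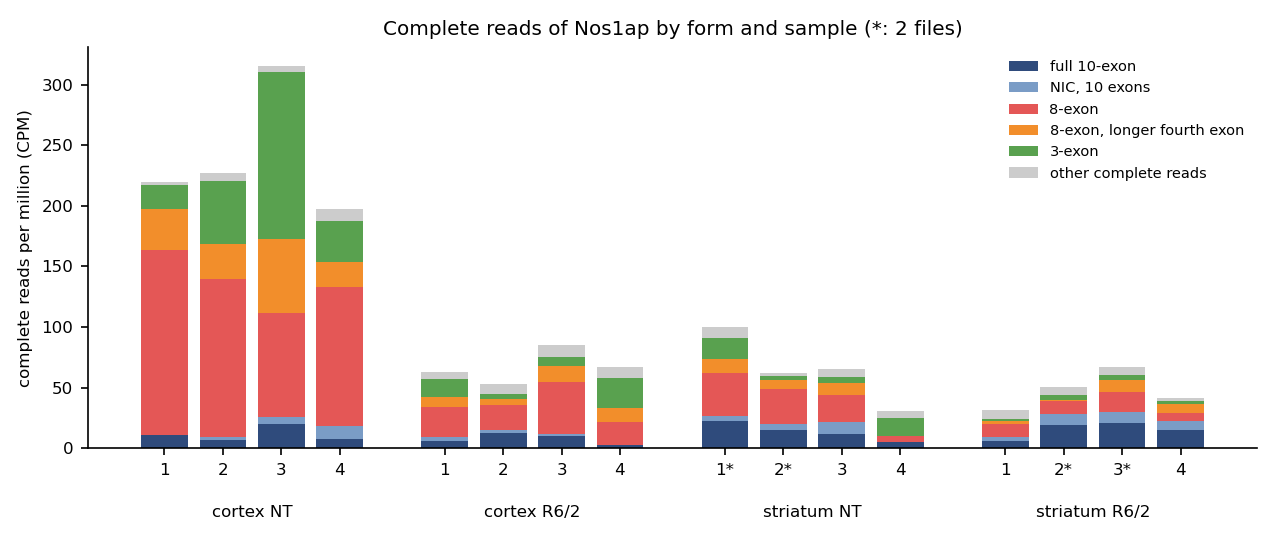
Complete reads of Nos1ap in CPM (vertical axis) in each sample, stacked by form, with replicate numbers along the horizontal axis and a star for samples of 2 files. The red and orange 8-exon forms and the green 3-exon form are tall in NT cortex, while the dark blue 10-exon form has group means between 7.74 and 15.4 CPM.

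Efhd2 (ENSMUSG00000040659, chr4:141858142-141874920, minus strand) had 446, 395.5, 341 and 355 CPM in NT cortex. R6/2 cortex had 162, 119, 143 and 101 CPM. The groups were apart, with means of 384 ± 47.1 and 131 ± 26.9 CPM (SD, n = 4), or 34.2% of the NT level and a log2 difference of −1.53 (SE 0.19). NT striatum had 88.1, 146, 44.3 and 15.2 CPM and R6/2 striatum 33.4, 59.4, 65.7 and 39.3 CPM. The spread in NT striatum followed the number of files, since NT 1 and NT 2 were the high samples. The mean in R6/2 mice was 122% of the NT mean in striatal samples of 1 file and 53.5% in those of 2 files, and the fitted log2 differences were 0.02 and −0.95, against −0.65 (SE 0.47) with all 8 samples. Without NT 2 alone, the striatal log2 difference of Efhd2 was −0.12, so its size rested on that sample. Nearly all complete reads were of the only known isoform, ENSMUST00000036854, whose 4 exons encode 240 residues, and it had 1130 of 1297 reads. Incomplete reads (ISM, with only some of an isoform's junctions) made up 11.7%.

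Bok (ENSMUSG00000026278, chr1:93685660-93695764, plus strand) had 181, 153, 158 and 111 CPM in NT cortex and 47.8, 46.7, 39.0 and 52.9 CPM in R6/2 cortex. The means were 150.5 ± 29.0 and 46.6 ± 5.74 CPM (SD, n = 4). The groups were apart, and the R6/2 mean was 31.0% of the NT mean (log2 difference −1.67, SE 0.21). No such difference was seen in the striatum, where NT samples had 44.7, 38.9, 24.6 and 15.2 CPM and R6/2 samples 24.3, 33.5, 31.8 and 39.3 CPM. The R6/2 mean was 104% of the NT mean (log2 difference −0.06, SE 0.28). The value was 159.6% in samples of 1 file, from 3 to 16 reads per sample, and 78.1% in those of 2 files. Most reads (397 of 509) were of ENSMUST00000027499, whose 5 exons encode 213 residues, and 19.6% were incomplete.

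Lypd1 (ENSMUSG00000026344, chr1:125867622-125913101, minus strand) had 254, 189, 244 and 204 CPM in NT cortex. R6/2 cortex had 76.4, 86.995, 99.6 and 72.1 CPM. The groups were apart, with means of 223 ± 31.3 and 83.8 ± 12.3 CPM (SD, n = 4), or 37.6% of the NT level (log2 difference −1.37, SE 0.18). NT striatum had 218, 227, 129.7 and 96.5 CPM and R6/2 striatum 74.4, 112, 162 and 66.3 CPM. Samples of 2 files were the high ones in both genotypes. Within each number of files the R6/2 mean was lower, at 62.2% of the NT mean with 1 file and 61.7% with 2 files, and the fitted log2 differences were −0.73 and −0.72.

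The isoforms of Lypd1 differ in their first exon. The main one, ENSMUST00000159417, starts at chr1 position 125912214 with coding sequence in its first exon and encodes 141 residues. ENSMUST00000159529 and ENSMUST00000162899 start further inside the gene and encode 89 residues. The main form had 72 of 90, 71 of 84, 42 of 48 and 84 of 101 complete reads in NT cortex, a share of 83.8% ± 3.11 (SD, n = 4). It was 81.5% ± 3.31 in R6/2 cortex, 83.3% ± 6.87 in NT striatum and 81.9% ± 5.95 in R6/2 striatum. Shares of the groups overlapped, although the level of the form went from 186 ± 26.0 to 68.6 ± 12.2 CPM in the cortex. A form with an upstream first exon (ENSMUST00000161361, start at 125913101) had shares between 7.31% ± 2.29 and 11.1% ± 4.43. The 2-exon form was rare, with 22 reads in all, and 19 of them were striatal, where Lypd1 also had more complete reads. Its share was 0.278% ± 0.556 in NT and 1.67% ± 3.33 in R6/2 cortex, and 2.64% ± 2.16 and 2.85% ± 3.18 in striatum. These shares overlapped, and Lypd1 did not pass the threshold in the test of isoform usage between the regions of NT mice. Only 1 of 1513 Lypd1 reads was classed as incomplete. The only junction of the 2-exon form is also the last junction of the main form. A main-form read that lacks its first exon may thus be counted as the 2-exon form, and some of the 22 reads may be of this kind. How complete Lypd1 reads were is therefore not shown by this class.

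**Figure D4:**
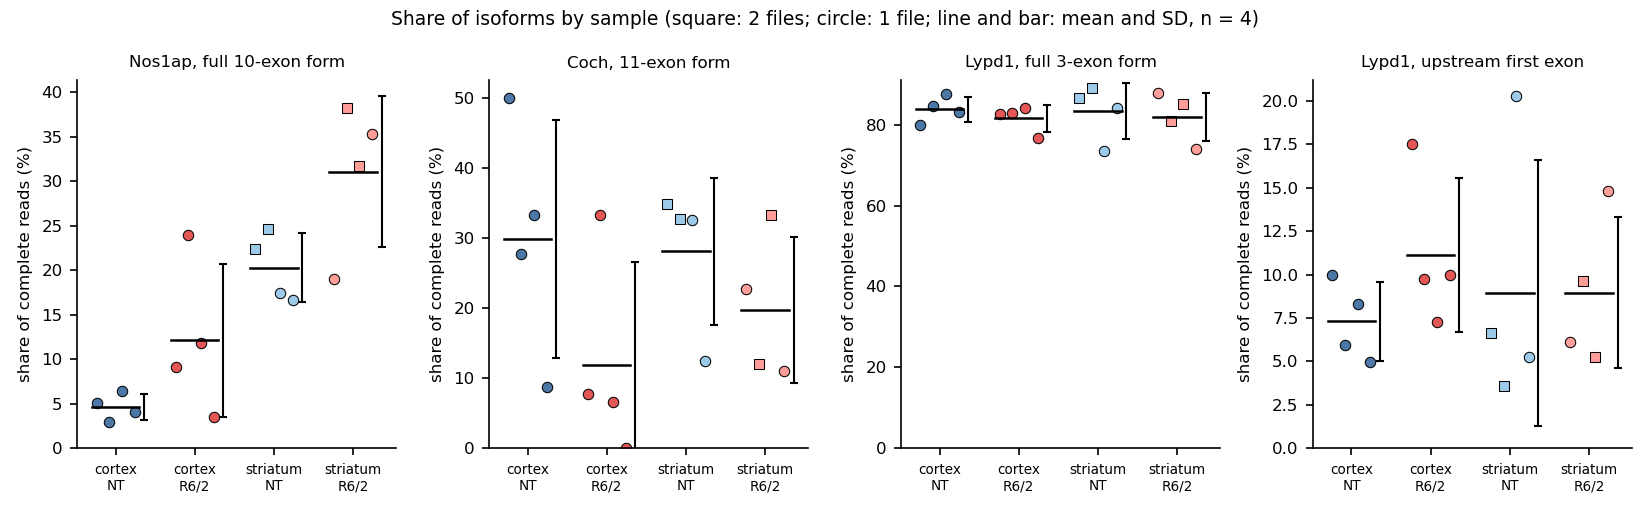
Share of complete reads (vertical axis, percent) of the 10-exon form of Nos1ap, the 11-exon form of Coch and 2 forms of Lypd1, by sample and group, with squares for samples of 2 files, a line for the mean and a bar for the SD. The Nos1ap form had shares of up to 6.45% in NT cortex and at least 16.7% in NT striatum, while the groups overlapped in each of the other panels.

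Coch (ENSMUSG00000020953, chr12:51593341-51605771, plus strand) was much lower in the striatum of R6/2 mice. NT striatum had 133, 108, 100.2 and 66.0 CPM. R6/2 striatum had 36.5, 32.4, 33.9 and 27.03 CPM. The groups were apart, with means of 102 ± 27.6 and 32.5 ± 3.98 CPM (SD, n = 4), or 31.9% of the NT level and a log2 difference of −1.67 (SE 0.23). The R6/2 mean was 38.2% of the NT mean in samples of 1 file and 27.6% in those of 2 files, and the log2 difference was −1.63 without NT 3, the sample with many reads of choroid plexus markers. In the cortex, NT samples had 47.9, 44.9, 15.3 and 56.5 CPM and R6/2 samples 28.7, 14.9, 24.5 and 16.8 CPM, from 3 to 28 reads each. These groups overlapped, through NT 3 with its 3 reads, and the R6/2 mean was 51.6% of the NT mean (log2 difference −1.02, SE 0.33).

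The known isoforms of Coch encode the same 552 residues and differ in the 5′ untranslated region. ENSMUST00000085412 has 12 exons and splices out an intron of 199 bases (chr12:51593406-51593604), which ENSMUST00000164782 keeps. The spliced form had 48 of 86, 71 of 116, 26 of 46 and 6 of 8 complete reads in NT striatum and 16 of 22, 20 of 25, 17 of 27 and 6 of 9 in R6/2 striatum. The form that keeps the intron had 30, 38, 15 and 1 reads in NT and 5, 3, 9 and 1 in R6/2 striatum, or 28.2% ± 10.5 and 19.8% ± 10.5 of complete reads (SD, n = 4). These shares overlapped. In CPM, the form that keeps the intron had 25.0 ± 14.6 CPM in NT and 5.71 ± 3.41 CPM in R6/2 striatum, or 22.8%, and the spliced form 48.5 ± 14.8 and 19.7 ± 4.17 CPM, or 40.6%. In the cortex, the form that keeps the intron had 15 of 58 complete reads in NT and 4 of 41 in R6/2 mice, and R6/2 4 had 0 of 7, which allows a share of up to 42.9%, so a difference was not detectable at this depth.

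Over the 5 genes, R6/2 and NT samples did not overlap for 4 in the cortex and for 1, Coch, in the striatum. Among all genes tested, R6/2 samples were lower without overlap for 6.47% (cortex) and 4.28% (striatum), and nothing is read from these counts because the genotype difference chose the genes. Ranked from the lowest log2 difference among 6121 genes tested in the cortex, Bok was at 22, Nos1ap at 27, Efhd2 at 31, Lypd1 at 48 and Coch at 130. Among 7658 genes in the striatum, Coch was at 52, Lypd1 at 590, Efhd2 at 718, Nos1ap at 991 and Bok at 3485. The striatal minus the cortical log2 difference was 1.62 (SE 0.37) for Bok, 1.09 (SE 0.34) for Nos1ap, 0.88 (SE 0.53) for Efhd2, 0.69 (SE 0.41) for Lypd1 and −0.66 (SE 0.43) for Coch. These values are a description, since the pattern was known when the genes were picked.

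**Figure D5:**
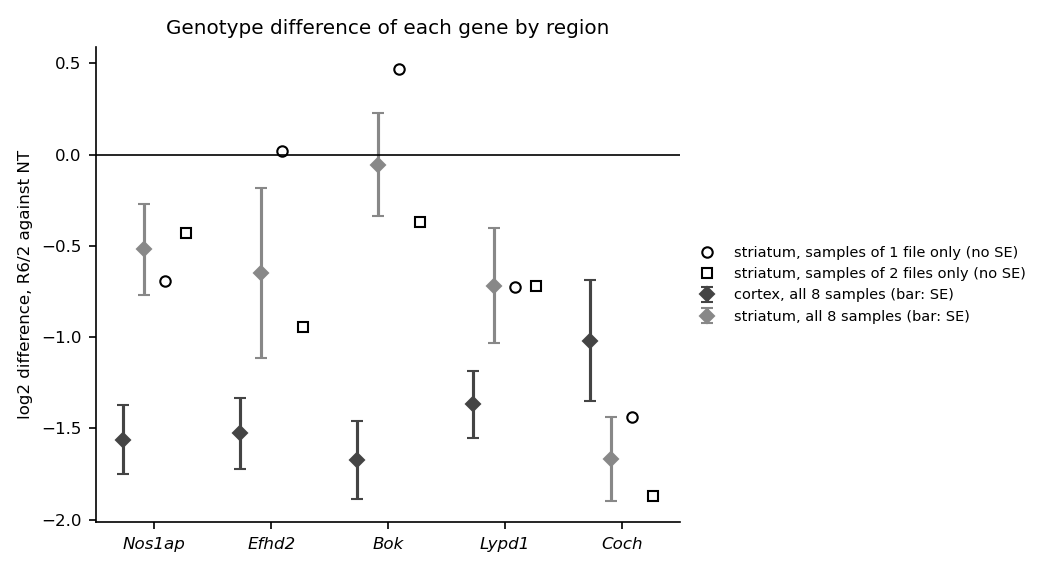
Log2 difference of R6/2 against NT mice (vertical axis) for each gene, with filled diamonds for all 8 samples of a region and their SE and open symbols for striatal samples of 1 or 2 files. Cortical values of Nos1ap, Efhd2, Bok and Lypd1 lie between −1.67 and −1.37, and the striatal values of Efhd2 and Bok differ in sign between samples of 1 and 2 files.

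Between the regions of NT mice, which the choice of the genes did not set against each other, 4 of the 5 genes differed at an adjusted p under 0.05 (edgeR's quasi-likelihood test), as did 9.45% of the genes tested. Nos1ap was 3.35 times as high in the cortex by its means (log2 difference of striatum against cortex −1.57, SE 0.26, adjusted p = 0.00302). Efhd2 was 5.23 times as high in the cortex (−2.19, SE 0.44, adjusted p = 0.00902) and Bok was 4.87 times as high (−2.05, SE 0.29, adjusted p = 0.00127). For these 3 genes all 4 cortical samples were above all 4 striatal samples, and 16.8% of the genes tested had regions without overlap. Coch was 2.47 times as high in the striatum (1.38, SE 0.33, adjusted p = 0.0220), also without overlap. Lypd1 did not differ beyond its spread (−0.26, SE 0.28, adjusted p = 0.600). The NT samples of each region are part of both this difference and the genotype difference in that region. NT cortex is the high side of both for Nos1ap, Efhd2 and Bok, and NT striatum is for Coch. These calls are therefore not independent of the choice of the genes.

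The number of files bears on the regional values of Efhd2, Lypd1 and Coch. For Efhd2, the log2 difference was −3.45 with only the striatal NT samples of 1 file and −1.69 with those of 2 files. For Lypd1, it was −0.90 with 1 file (adjusted p = 0.0376) and 0.03 with 2 files (adjusted p = 0.971), so whether Lypd1 was lower in the striatum depended on which samples were used. For Coch, it was 1.002 with 1 file (adjusted p = 0.0510) and 1.46 with 2 files (adjusted p = 0.00436). The call of Coch was also lost without striatal NT 3 (adjusted p = 0.0541), cortical NT 1 (0.0516) or cortical NT 2 (0.0765).

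Between the regions of R6/2 mice, 1 of the 5 genes passed the threshold. The R6/2 samples entered the choice of the genes as well. R6/2 cortex is the low side of the genotype difference for Nos1ap, Efhd2, Bok and Lypd1, and R6/2 striatum is for Coch. These results are therefore not independent of the choice, and a smaller regional difference than in NT mice is not read as a result. Efhd2 was 2.65 times as high in the cortex (log2 difference of striatum against cortex −1.33, SE 0.24, adjusted p = 0.00396), without overlap. The other genes did not pass the threshold, where 14.7% of the genes tested did. Nos1ap had a log2 difference of −0.55 (SE 0.21, adjusted p = 0.114), Bok −0.48 (SE 0.22, adjusted p = 0.174), Coch 0.65 (SE 0.26, adjusted p = 0.127) and Lypd1 0.38 (SE 0.27, adjusted p = 0.386). With the number of files as a term, the value of Nos1ap was −0.89 (adjusted p = 0.00829). With striatal samples of 2 files only, Lypd1 was higher in the striatum (0.71, adjusted p = 0.00970), and with those of 1 file its value was −0.18. The striatal minus the cortical log2 difference given above is also the change of the regional difference between the genotypes, and it is a description without a test.

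The share of incomplete reads was compared between the regions of NT mice as a measure that did not choose the genes. It was 8.59% ± 6.37 in cortex and 19.98% ± 14.2 in striatum for Nos1ap, 11.3% ± 6.66 and 28.5% ± 28.5 for Efhd2, and 11.4% ± 8.42 and 22.7% ± 11.7 for Coch (SD, n = 4). For Bok it was 16.2% ± 7.75 and 15.5% ± 11.4, and for Lypd1 0.151% ± 0.301 in the striatum with no incomplete read in NT cortex. Lypd1 reads that lack the first exon may be missed here, as they can be counted as its 2-exon form. No difference was larger than the spread (two-sided exact permutation tests over 70 arrangements, p between 0.143 and 1, adjusted p at least 0.524), and the smallest p this design allows is 0.0286.

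Members of the families of these genes, from lists drawn up with earlier results of these data known, were less often tested than the lists are long, since many had few reads. Among EF-hand calcium sensors, 7 of 31 tested genes fell in R6/2 cortex and none rose, where 2.81% of all genes tested fell and 0.457% rose, with a median log2 difference of −0.42 against 0.01 over all genes tested (edgeR; DESeq2 also called 7 lower and none higher, and 15 were lower and 1 higher at an unadjusted p under 0.05). Tesc, the calcium-binding tescalcin, fell by 1.38 on the log2 scale (SE 0.27, adjusted p = 0.00508), and Necab3, a neuronal calcium-binding protein, fell by 1.199 (SE 0.20, adjusted p = 0.00112). In the striatum, 2 of 30 fell, where 0.509% of all genes tested did, with a median of −0.39 against −0.01 (DESeq2 called 6 lower and none higher, and 9 were lower and none higher at an unadjusted p under 0.05). The 2 were Tesc, which fell by 2.05 (SE 0.35, adjusted p = 0.0427), and Hpca, the neuronal calcium sensor hippocalcin, which fell by 1.47 (SE 0.26, adjusted p = 0.0468).

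The BCL2 family list gave 1 call in each region, Itpr1, an inositol trisphosphate receptor and not a BCL2 protein. It had log2 differences of −0.99 in the cortex (SE 0.19, adjusted p = 0.00384) and −1.27 in the striatum (SE 0.22, adjusted p = 0.0427). The list's medians were 0.17 over 6 genes and −0.08 over 7 genes tested. Among partners of Nos1ap in nitric oxide and NMDA receptor signalling, 0 of 12 genes tested in cortex and 0 of 13 tested in striatum passed with edgeR or DESeq2, and at an unadjusted p under 0.05 there was 1 higher in the cortex and 1 lower in the striatum. Medians were −0.12 and −0.18. Of Ly6 proteins and nicotinic receptors, 0 of 3 and 0 of 5 tested genes passed with edgeR (medians −0.54 and −0.36), with 1 lower in the cortex and 1 lower and 1 higher in the striatum at an unadjusted p under 0.05 and 1, Cd59a, lower in the striatum with DESeq2. Of proteins that share a domain with Coch, 0 of 3 and 0 of 6 passed with edgeR or DESeq2 (medians −0.37 and −0.36), and at an unadjusted p under 0.05 there was 1 lower in the cortex and 2 lower and 1 higher in the striatum.

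Summed markers of several neural cell types moved with the genotype too, but few genes made up most of some sums. The 10 markers of cortical excitatory neurons, all with reads, summed to between 483 and 835 CPM in NT cortex and between 290.3 and 379.8 CPM in R6/2 cortex, and 2 of 5 tested fell. These 2, Lamp5 (means of 357 and 82.3 CPM) and Nrn1 (171 and 94.4 CPM), made up most of the difference between the sums. All 5 tested had log2 differences below 0, but Tbr1 (17.8 and 18.2 CPM) and Neurod2 (20.6 and 20.2 CPM) hardly differed in their means. The 7 interneuron markers summed to 666 to 872 CPM and 373 to 421 CPM, and 3 of 6 tested fell. The 6 astrocyte markers summed to 2247 to 3521 CPM and 1301 to 1731 CPM, and 1 of 6 fell. This was Aldoc (means of 2193 and 898 CPM), which held most of the sum. The 10 markers of striatal projection neurons, low in cortex, summed to 432 to 516 CPM in NT cortex and 112 to 153 CPM in R6/2 cortex, and 2 of 3 tested fell. In the striatum, where Coch was lower, they summed to between 10758 and 14691 CPM in NT and between 2042 and 3481 CPM in R6/2 mice, and 5 of 10 tested fell. Striatal sums were also apart between the genotypes for interneuron markers, at 1067 to 1300.3 CPM and 698 to 803 CPM, and for astrocyte markers, at 1971 to 3878 CPM and 1280.3 to 1841 CPM, although none of the 6 markers tested in each list passed the threshold with edgeR (1 of each was lower at an unadjusted p under 0.05, and DESeq2 called none of the interneuron markers and 1 of the astrocyte markers). Aldoc also held most of the striatal astrocyte sum (means of 2218 CPM in NT and 973 CPM in R6/2 mice), whereas Gfap had 102 and 121 CPM. The part of these cell types in the levels of the 5 genes was not tested.

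Across the 16 samples, after centring within the cortex and within striatal samples of 1 and of 2 files, log2 CPM of Nos1ap and Lypd1 had a Pearson r of 0.94. Among 4756 genes with at least 20 reads per sample on average, the 3 most like Nos1ap were Lypd1, Nrsn1 (0.91) and Fbxw7 (0.90). Those most like Lypd1 were Kalrn (0.95), Gabrd (0.94) and Nos1ap. Bok was most like Adssl1 (0.89), Efhd2 (0.87) and Coro1a (0.87), Efhd2 like Aifm3 (0.89), Narfl (0.89) and Nbl1 (0.88), and Coch like Elmo1 (0.93), Baiap2 (0.92) and Lpgat1 (0.90). Coch and Bok had the lowest r among pairs of the 5 genes, 0.28. These values describe the samples, which share the genotype difference that chose the genes, and carry no test. Of the 5 genes, 3 (Nos1ap, Bok and Lypd1) lie on chromosome 1, as do 5.77% of the genes tested in the cortex.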

How the data were processed

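Iso-seq libraries of 16 samples were analysed. From consensus reads, the authors retained those that were complete and polyadenylated, and aligned these with minimap2 2.17-r941 to mm10 (both also in the submitters' processing notes). TranscriptClean then corrected the alignments, and TALON annotated each read with Ensembl models. What the authors deposited are raw TALON counts per isoform, without a filter. The 20 files hold 1 sample each, and the 2 files of 4 striatal samples, whose labels say only that the raw data hold replicates, were taken as repeat runs of 1 sample and summed.

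Groups were taken from the labels, which do not say whether equal numbers mark the same mouse, and p values then measure the spread between these samples. Gene counts are sums of known, ISM, NIC and NNC isoforms, without the genomic, antisense and intergenic classes. They were tested with edgeR 4.0.16 (R 4.3.3; TMM, filterByExpr, quasi-likelihood test, Benjamini-Hochberg threshold 0.05), isoform usage with diffSpliceDGE over isoforms with at least 10 reads, and shares of incomplete reads with exact permutation tests (scipy 1.17.1). DESeq2 1.42.0 was an alternative. The full form of a gene is the known isoform with most exons among those with at least 10 reads. Limits on a count of 0 take 3 counts and cover counting error only.

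The genes and lists were chosen with earlier results of these data known. Named are the 5 genes, at most 2 genes of a list with the largest change among those with an adjusted p under 0.05 in a genotype comparison and at least 20 reads, and the 3 genes most like each (log2 CPM, prior count 2), besides markers. Cd59a was named after its values were seen. Positions are from GENCODE M21 (GRCm38). The test script was tested on simulated data: between regions in NT mice (5832 genes), 96.6% of genes changed 4-fold and 13.5% of those changed 2-fold were recovered, and for isoform usage (3367 genes) 8.56% of those changed 4-fold. Between genotypes, 98.9% and 61.5% were recovered in the cortex (5879 genes) and 82.6% and 7.87% in the striatum (7290 genes). Most 2-fold changes in the striatum would thus be missed, and counts of calls in the 2 regions are not alike in power.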

Additional observations from a re-analysis of the deposited data

Results flagged for a closer look

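Of 80 sets of 4 samples (levels of the genes and shares of their isoforms), 8 held a sample that stood far from the other 3 by Dixon's ratio, where chance flags about 1 in 20. No level of a gene was among them. For 6 of the 8, the other 3 samples had equal values, at 100% or 0%. The share of the known Efhd2 isoform was 98.8% in NT 4 of the cortex (98.79%) and in R6/2 3 of the cortex (98.84%), that of the known Bok isoform was 95.5% in R6/2 3 of the striatum, and the 2-exon form of Lypd1 had 1.111% in NT 1 and 6.67% in R6/2 4 of the cortex. The inner first exon of Lypd1 had 1.98% in NT 4 of the cortex. The spliced form of Coch had 66.7% in R6/2 2 of the cortex, from 4 of 6 complete reads, and the form of Coch that keeps the intron had 12.5% in NT 4 of the striatum, from 1 of 8.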

How the results depend on the processing

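Of 170 alternative log2 differences between genotypes for the 5 genes, 163 were below 0, and the others belong to Efhd2 and Bok in the striatum. The 4 cortical values lay between −1.82 and −1.29 for Nos1ap, Efhd2, Bok and Lypd1 together. The difference of Bok in the striatum was 0.47 with samples of 1 file, a choice made after seeing the data. Of 172 alternative isoform shares, 18 moved by more than 1 SD. For Lypd1, the regional log2 difference reversed to 0.0264 in NT mice with striatal samples of 2 files, and in R6/2 mice to −0.18 with the number of files as a term (−0.183) or with samples of 1 file (−0.178).

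Counts of genes called depended on the processing. Between regions in NT mice (583), they were 1302 without a filter on low counts, 355 without ISM reads, 1476 with the number of files as a term, 1101 with all 16 samples in one fit, 1609 with striatal samples of 1 file, 986 with those of 2 files, and 352 to 736 leaving out each sample. In R6/2 mice (1023), they were 1634 without a filter, 1994 with the number of files as a term, 1987 and 2405 with striatal samples of 1 or 2 files, and 676 to 1259 leaving out each sample. Between genotypes in the cortex (200), they were 95 without ISM reads, 48 with all 16 samples in one fit and 95 to 305 leaving out each sample. In the striatum (39), they were 189 with DESeq2, 77 without a filter, 13 without ISM reads, 20 with the first file only, 332 with the number of files as a term, 145 with all 16 samples and 3 to 44 leaving out each sample. For isoform usage (10), they were 21 with the gene-level F test, 5 with the number of files as a term and 0 to 12 leaving out each sample. The adjusted p of Nos1ap usage lay between 0.0791 and 0.99986 over the alternatives.

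With a replicate block, 307 genes were called between regions in NT mice, 0 between genotypes in the striatum and 1 for isoform usage, and the regional difference of Coch was 1.43 (adjusted p = 0.0719). Correlations of deviations between samples of equal number lay between −0.0726 and 0.174 for NT and R6/2 cortex and between −0.571 and 0.618 for NT and R6/2 striatum. Between the regions they lay between −0.23 and 0.224 in NT mice and between −0.04 and 0.399 in R6/2 mice. In none of these comparisons were all 4 above 0.1, so the numbers were not used to pair samples, and whether they mark the same mouse is not given in the labels. The share of incomplete reads of Nos1ap differed between regions by 16.1 percentage points with the first file only (exact permutation test, p = 0.0286). Leaving out each sample gave 4.72 to 15.2 points for Nos1ap and 4.51 to 26.0 for Efhd2. It gave −4.48 to 4.41 for Bok, which turned positive (4.41 and 2.72) without striatal NT 4 or cortical NT 1. The causes were not tested. Depth limits the rarer isoforms and Coch in the cortex.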

Other observations

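Genomic-class reads of Lypd1 had 29.9 ± 8.95 CPM in NT and 8.46 ± 3.56 CPM in R6/2 cortex (SD, n = 4), without overlap, and 23.4 ± 20.2 and 11.7 ± 5.30 CPM in NT and R6/2 striatum. They made up 8.79% of all Lypd1 reads. An NIC isoform of Nos1ap with 10 exons had 6.68% ± 6.39 of complete reads in NT striatum and 14.2% ± 3.83 in R6/2 striatum, against 1.93% ± 2.22 in NT cortex. An NNC isoform of Lypd1 had 7.35% ± 2.26 of complete reads in NT cortex and 4.73% ± 1.41 in NT striatum.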
